A study of Mus musculus with 2 samples.

Results

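Tcf21, Tbx20, Gata4, Gata6, Hand2, Osr1, Meox1, Prrx1 and Scx are 9 transcription factor genes of cardiac fibroblasts and their relatives. They were taken by name, and all 9 were found among the 15247 genes of the table. The cells came from hearts of aged p16-FDR mice (20 to 22 months, strain C57BL/6). These mice carry a FLP recombinase and a diphtheria toxin receptor (DTR) fused to the red reporter mCherry, in a strain named for p16, a product of the gene Cdkn2a. Heart cells carrying mCherry were sorted by flow cytometry and profiled with a droplet 3' kit that counts unique molecular identifiers (UMIs, each standing for 1 captured RNA). The labels give 2 samples, both of this 1 group, so there was no young, mCherry-negative or untreated reference. Every cell shares the reporter allele, the age and the sort, and the labels do not say how many animals were pooled. The comparisons therefore ran between kinds of cell within the same libraries.

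Cardiac fibroblasts mostly descend from the epicardium, and a resident fibroblast keeps several factors that also build the embryonic heart. Tcf21 and Hand2 are basic helix-loop-helix (bHLH) factors that bind E-boxes with ubiquitous bHLH partners, and the Id proteins block them by taking up those partners. Gata4 and Gata6 are zinc finger factors that bind GATA motifs, and Tbx20 is a T-box factor that works with them in heart development. Osr1 (a zinc finger factor), Meox1 and Prrx1 (homeobox factors) and Scx (a bHLH factor) are mesenchymal regulators shared with limb, somite or tendon. In the mouse heart, Meox1 is known as a regulator of fibroblast activation.

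Promoters were taken from RefSeq (GRCm38.p6, windows of 300 bases around the start of the gene), which matched 4 of the 9 factors. Scx, Meox1 and Osr1, which had clear contrasts between fibroblast subsets, were not among the matches. Capitals mark the E-box CANNTG and the GATA motif GATAA, searched on both strands, with no overlap between the matches shown. Tbx20 and Hand2 are shown because they were higher together in Wif1-bearing fibroblasts, and Tcf21 because it was lower in Thbs4-bearing ones.
Tbx20 (chr9:24774254-24774553, minus strand): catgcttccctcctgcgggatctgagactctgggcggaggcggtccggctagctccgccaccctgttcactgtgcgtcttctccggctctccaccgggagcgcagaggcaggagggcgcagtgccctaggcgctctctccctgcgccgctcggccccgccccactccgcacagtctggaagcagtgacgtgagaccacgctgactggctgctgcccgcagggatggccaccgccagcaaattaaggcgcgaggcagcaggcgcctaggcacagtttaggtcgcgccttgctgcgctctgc
Hand2 (chr8:57320733-57321032, plus strand): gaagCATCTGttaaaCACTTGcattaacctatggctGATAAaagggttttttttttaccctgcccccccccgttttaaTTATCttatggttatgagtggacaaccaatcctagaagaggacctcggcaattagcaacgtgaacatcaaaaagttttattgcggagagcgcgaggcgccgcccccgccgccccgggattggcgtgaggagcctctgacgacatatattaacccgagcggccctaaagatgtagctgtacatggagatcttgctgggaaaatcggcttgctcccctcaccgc
Tcf21 (chr10:22820094-22820393, minus strand): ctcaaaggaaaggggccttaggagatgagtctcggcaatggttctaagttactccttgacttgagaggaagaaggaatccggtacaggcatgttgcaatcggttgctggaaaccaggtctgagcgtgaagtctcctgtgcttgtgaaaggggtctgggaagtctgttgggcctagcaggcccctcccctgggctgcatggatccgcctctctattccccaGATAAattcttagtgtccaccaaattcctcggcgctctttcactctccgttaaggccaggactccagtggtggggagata
The Hand2 window held 2 E-boxes and 2 GATA motifs, the Tcf21 window held 1 GATA motif, and the Tbx20 window held neither. Of 32851 promoters of the same length, 72.3% held an E-box and 25.4% held the GATA motif, so a match is common. These matches describe letters only.

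Cells belong to 2 libraries by the start of their names, Heart1 and Heart2, and neither could be tied to a particular sample. Heart1 held 266 cells and Heart2 1160, with 1426 distinct barcodes in all, so no barcode was shared. A cell was gated as a fibroblast when at least 4 of Col1a1, Col1a2, Col3a1, Dcn, Lum and Pdgfra had a UMI and at most 1 of 6 macrophage genes did. The macrophage gate asked for at least 4 of C1qa, C1qb, C1qc, Csf1r, Adgre1 and Ptprc and at most 2 of the fibroblast genes. The fibroblast gate took 204 Heart1 cells (76.7%) and 937 Heart2 cells (80.8%), and the macrophage gate took 37 (13.9%) and 208 (17.9%). Median depths were 11856 and 8772 UMIs in fibroblasts and 8133 and 9568 UMIs in macrophages. The libraries stood apart in makeup: Cdkn2a, the p16 gene itself, had a UMI in 34.3% of Heart1 fibroblasts and in 0.747% of Heart2 fibroblasts, and Wif1 in 18.6% and 1.07%. Results are therefore given for each library.

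All 9 factors were detected in gated fibroblasts and were at or near 0 in gated macrophages of the same libraries. Levels are UMIs summed over a gate and scaled to a total of 1000000 (CPM), with 95% Poisson intervals that cover counting error only. Between different genes these levels are not comparable, since 3' counts are not levels per length. A count of 0 in macrophages allowed up to 8.64 CPM in Heart1 and 1.46 CPM in Heart2 (3 UMIs of the gate's total).

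Tcf21 (chr10:22817281-22820174), the factor most closely tied to the fate of epicardium-derived fibroblasts, stood at 263.8 CPM in Heart1 fibroblasts and 462.8 CPM in Heart2 fibroblasts. Macrophages held no Tcf21 UMI in Heart1 and 1 UMI in Heart2, so the level in fibroblasts was at least 30.5-fold higher in Heart1 and 950-fold higher in Heart2 (interval 170 to 37528). A Tcf21 UMI was present in 79.9% and 90.8% of the fibroblasts. With each cell thinned to 3000 UMIs these shares were 47.0% and 67.0%.

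Tbx20 (chr9:24718138-24774303) stood at 337.6 CPM in Heart1 fibroblasts and 231.0 CPM in Heart2 fibroblasts, against 0 and 1 UMI in macrophages. It was found in 80.4% and 71.7% of fibroblasts. Its GATA partners were sparser in single cells. Gata4 (chr14:63198922-63271692) stood at 51.4 and 47.5 CPM in fibroblasts, with a UMI in 39.2% and 33.6% of them. Gata6, on chromosome 18, stood at 119.6 and 95.0 CPM, with a UMI in 69.6% and 52.8%. No macrophage of either library had a Gata4 or Gata6 UMI, so both were at least 5.95-fold higher in fibroblasts of Heart1 and at least 32.5-fold higher in those of Heart2. Hand2 (chr8:57320983-57324633), a heart and limb bHLH factor, stood at 87.6 and 75.2 CPM in fibroblasts and was also at 0 in macrophages. Its shares of fibroblasts were 57.4% and 46.5%.

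The mesenchymal factors split into common and rare ones. Prrx1 (chr1:163245119-163313710), known from limb mesenchyme, stood at 134.9 and 128.6 CPM with a UMI in 76.5% and 60.5% of fibroblasts, against 0 UMIs in macrophages. Meox1 (chr11:101877510-101894374) stood at 521.7 CPM in Heart1 fibroblasts and 191.0 CPM in Heart2 fibroblasts, against 1 macrophage UMI in each library. Osr1 (chr12:9570116-9581500), a marker of embryonic connective tissue progenitors, stood at 28.7 and 53.3 CPM with a UMI in 22.1% and 24.5% of fibroblasts. Scx (chr15:76457452-76459458), the tendon factor, was the rarest: 20 of 204 and 7 of 937 fibroblasts had a UMI, and its summed levels were 50.7 and 4.74 CPM.

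UMIs of the factors in macrophages were few. Dcn, the proteoglycan gene that defines the fibroblast gate, reached 0.0584% (Heart1) and 0.129% (Heart2) of its fibroblast level in macrophages. The Heart2 macrophage UMIs of Tcf21, Tbx20, Osr1 and Meox1 came to 0.105%, 0.211%, 0.914% and 0.255% of the fibroblast levels, each from a single UMI. The 1 Meox1 UMI in Heart1 macrophages came to 0.552%. The Tbx20, Osr1 and Meox1 values lay above that of Dcn in the same library, and the Tcf21 value lay below it. The gate itself limits the level of Dcn in macrophages, and single UMIs at this depth are not read as expression.

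**Figure D1:**
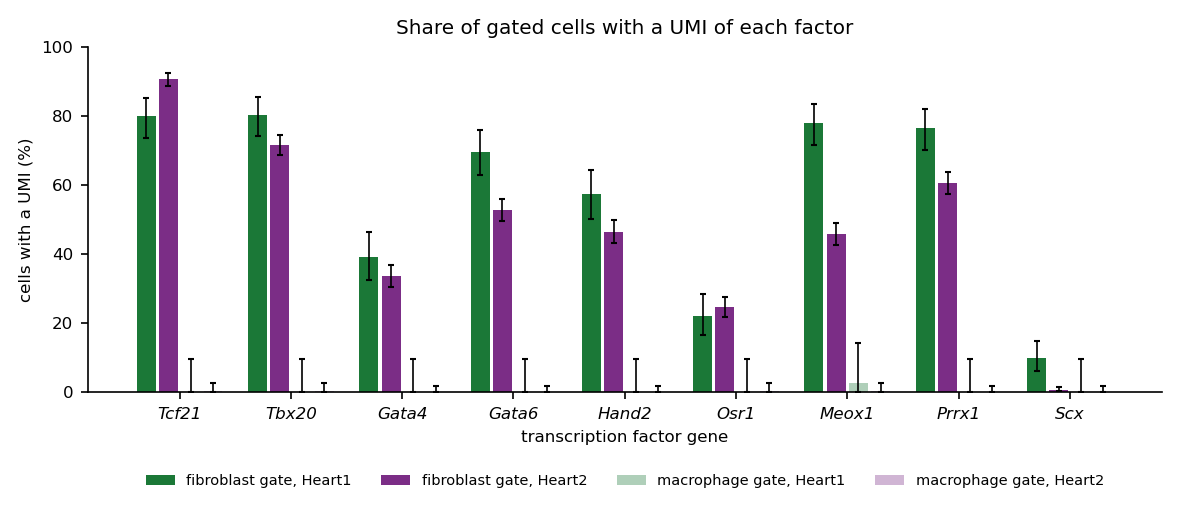
Share of gated cells with at least 1 UMI of each factor (percent), fibroblast gate then macrophage gate, Heart1 and Heart2, with exact 95% binomial intervals. Fibroblast shares ran from 0.747% (Scx, Heart2) to 90.8% (Tcf21, Heart2). For each factor taken singly, no more than 1 cell of a macrophage gate had a UMI.

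In the fit across all genes (limma on log2(CPM + 5) of the sums, library as a block), 9 of 9 factors were called higher in fibroblasts. In the same comparison 43.0% of 8778 genes were called in either direction with 25.9% called higher and 17.1% lower. Each factor passed the low-level filter through its fibroblast sums alone and so had to differ, which is why the count supports nothing further. Differences on this scale were 6.08 ± 0.27 (SE) for Tcf21, 5.76 ± 0.27 for Tbx20, 5.61 ± 0.28 for Meox1 and 4.77 ± 0.29 for Prrx1. They were 4.48 ± 0.31 for Gata6, 4.11 ± 0.32 for Hand2, 3.44 ± 0.37 for Gata4 and 3.08 ± 0.39 for Osr1. The smallest was Scx, at 2.22 ± 0.56 with a limma adjusted p of 0.00249, and its difference was 3.48 in Heart1 and 0.96 in Heart2. Without the library block the adjusted p of Scx was 0.072, and with the mean of the deposited log values it was 0.0615. With 2 libraries, standard errors and p-values rest mostly on the spread of other genes (1 residual degree of freedom and 19.1 prior ones), and that spread may be technical.

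Single cells carried several factors at the same time. The median fibroblast had UMIs of 5 of the 9 factors in Heart1 (range 1 to 9) and of 4 in Heart2 (range 0 to 8). At least 4 factors were present in 85.8% of Heart1 and 71.7% of Heart2 fibroblasts. In contrast, 36 of 37 Heart1 macrophages and 204 of 208 Heart2 macrophages had none, and no macrophage had more than 1. Over the 28 pairs without Scx, the number of fibroblasts with both factors was between 0.923 and 1.20 times the number that the product of the separate shares gives in Heart1 and between 0.888 and 1.09 times in Heart2. Pairs with Scx ranged from 0.453 to 1.66 in Heart1 and from 0 to 2.12 in Heart2, on 20 and 7 cells.

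**Figure D2:**
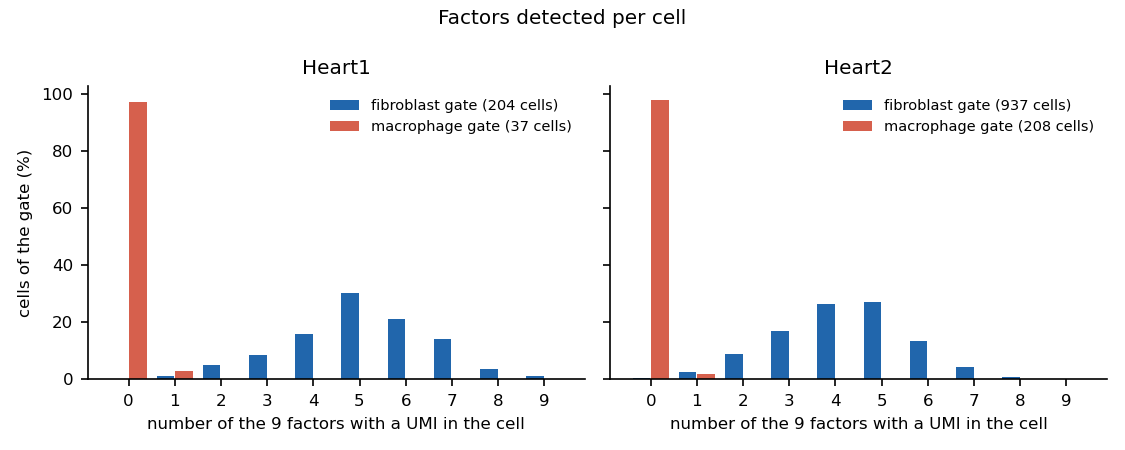
Number of the 9 factors with a UMI in a cell (horizontal axis) and percent of the gate's cells (vertical axis), fibroblast gate then macrophage gate in each library. Fibroblasts centred on 5 factors in Heart1 and between 4 and 5 in Heart2, and nearly every macrophage had 0.

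Other regulators of the same families followed the fibroblast gate for the most part. Of 22 tested epicardial and mesenchymal factors, 20 were called higher in fibroblasts and 2 lower, where 25.9% of all genes were called higher and 17.1% lower. Most of the 20 passed the low-level filter only through their fibroblast sums and so had to differ, and 19 of the 41 list genes in the table were not tested. Ebf1, an early B cell factor family member also used by mesenchyme, differed by 6.16 ± 0.26, and Sox9, a cartilage and valve factor, by 4.83 ± 0.29. Heyl, a Notch target, differed by 4.14 ± 0.33. The exceptions were Foxp1 and Zeb2, which were lower in fibroblasts. Of 7 bHLH partners and inhibitors, 5 were higher, among them Id4 (3.59 ± 0.46), Id3 (1.45 ± 0.23) and the partner Tcf4 (1.42 ± 0.17). Of 6 tested GATA cofactors, 4 were higher: Zfpm2 (FOG2, which binds Gata4) by 2.77 ± 0.43, Lmcd1 by 2.90 ± 0.52, Fhl2 by 2.82 ± 0.39 and Lmo4 by 2.39 ± 0.25. Id4, Zfpm2, Lmcd1 and Fhl2 likewise passed the filter through fibroblasts. Factors better known from cardiomyocytes went the other way, with 0 of 5 higher and 3 lower: Mef2c (-2.53 ± 0.22), Mef2a (-1.65 ± 0.20) and Hopx (-1.34 ± 0.28). The macrophage gate also held more cardiomyocyte RNA. The summed level of 6 cardiomyocyte markers was 233.4 and 81.8 CPM in macrophages, against 39.1 and 14.5 CPM in fibroblasts, and its part was not tested. Of 12 macrophage factors 11 were lower in fibroblasts, led by Spi1, the PU.1 gene, at -6.70 ± 0.25, and 1, Nr1h3, was higher. Any gene called lower here that passed the low-level filter only through its macrophage sums likewise had to differ. Zeb2 is on both lists. Each gene given here with a difference had a limma adjusted p of 0.000474 or less.

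The libraries differed in some factors and hardly in others. Within fibroblasts the Heart1 level over the Heart2 level was 1.08 for Gata4 (interval 0.885 to 1.32), 1.05 for Prrx1 (0.929 to 1.18) and 1.16 for Hand2 (0.998 to 1.35). These 3 intervals include 1. Tcf21 was lower in Heart1 (ratio 0.570, 0.526 to 0.618), as was Osr1 (0.538). Gata6 was higher in Heart1 (1.26, 1.10 to 1.43), as was Tbx20 (1.46, 1.35 to 1.58), Meox1 more so (2.73, 2.54 to 2.94), and Scx most (10.7, 7.47 to 15.6). With 1 library of each name there is no replicate check of these ratios, and the intervals cover counting error only. Heart1 fibroblasts were deeper, and on cells thinned to 3000 UMIs the Meox1 shares were 53.5% in Heart1 and 27.8% in Heart2.

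The makeup of the fibroblasts moved with these ratios. A UMI of Thbs4, a matrix glycoprotein of tendon and injured heart, was present in 13.7% of Heart1 and 1.71% of Heart2 fibroblasts. Among fibroblasts with a Thbs4 UMI the Heart1 over Heart2 ratio was 0.986 for Meox1 (0.833 to 1.17) and 1.29 for Scx (0.880 to 1.92). Both intervals include 1. Among fibroblasts without a Thbs4 UMI the ratio was 2.50 for Meox1 (2.30 to 2.71) and 28.9 for Scx (8.74 to 150). For Tcf21 it was 0.637 with a Thbs4 UMI and 0.633 without. The part of subset makeup in the differences between libraries was not tested.

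Subsets of fibroblasts were set by 4 genes: Wif1, a secreted Wnt inhibitor, Thbs4, Pi16, a peptidase inhibitor of adventitial fibroblasts, and Inmt, a methyltransferase. The first gates asked for at least 2 UMIs of 1 of the 4 genes and fewer than 2 of each of the other 3. Pi16 was so widespread that these gates left 12 and 5 cells for Wif1, 1 and 0 for Thbs4, and 1 and 21 for Inmt, too few in a library for the minimum of 10. Of the 4, the Pi16 gate (119 and 664 cells) could be tested, against 15 and 129 cells negative for all 4 genes. Of 8 factors tested there, 1 was called, while 1.14% of 8705 genes were called, 0.758% higher and 0.379% lower. Meox1 stood at 419.9 and 195.0 CPM in Pi16-positive cells, against 176.0 and 125.9 CPM in four-gene-negative cells, a limma difference of 0.92 ± 0.21 (adjusted p 0.0239). This call ended under median ratio scaling (adjusted p 0.429), with at least 3 UMIs of the gate gene (0.164), in 1 fit over all gates (0.884) and without the library block (0.974). After these cells were counted and levels seen, each gene was also used alone, comparing fibroblasts with at least 1 UMI of it against those with none. The subset results that follow use these simpler gates.

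In fibroblasts with a Wif1 UMI (38 and 10 cells), Tbx20, Hand2, Gata4 and Meox1 were higher than in those without (166 and 927 cells). Tbx20 stood at 551.9 CPM in Heart1 and 1100.7 CPM in Heart2 with Wif1, against 289.8 and 218.5 CPM without. Hand2 stood at 173.7 and 193.2 CPM with Wif1, against 68.4 and 73.6 CPM without. Gata4 stood at 92.0 and 142.8 CPM with Wif1, against 42.4 and 46.2 CPM without. For these 3 factors both libraries with Wif1 lay above both without. Meox1 stood at 760.4 and 453.7 CPM with Wif1, against 468.5 and 187.3 CPM without; it was higher within each library, though the groups overlapped across libraries.

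The limma differences with Wif1 were 1.61 ± 0.31 for Tbx20 (adjusted p 0.0223), 1.31 ± 0.25 for Hand2 (0.0218), 1.28 ± 0.29 for Gata4 (0.0465) and 0.97 ± 0.22 for Meox1 (0.0486). So 4 of 9 factors were called, all higher, where 3.99% of 8611 genes were called (1.96% higher and 2.03% lower). With a pseudocount of 1 CPM the calls of Gata4 (adjusted p 0.059) and Meox1 (0.0661) ended. Tcf21 stood at 147.2 and 260.5 CPM with Wif1, against 289.8 and 465.6 CPM without, a difference of -0.89 ± 0.21 that missed the threshold (adjusted p 0.0607). It passed with no filter on low genes (0.0247) and with the mean of the deposited log values (0.012). Osr1 stood at 10.2 and 16.8 CPM with Wif1, against 32.8 and 53.8 CPM without, resting on 5 and 2 UMIs (adjusted p 0.1). Gata6 was 1.28 higher in Heart1 and 0.30 higher in Heart2 and was not called (adjusted p 0.241). The Prrx1 differences were -0.30 in Heart1 and 0.06 in Heart2.

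Some genes of the related lists also differed with Wif1. Id4 was higher by 5.01 ± 0.58 (adjusted p 0.00161) and Id3 by 1.17 ± 0.23 (0.0248), 2 of 7 bHLH partners and inhibitors tested. Lmcd1, a LIM protein that restrains GATA factors, was higher by 3.90 ± 0.34 (0.000492), 1 of 7 GATA cofactors tested, and Hopx by 2.23 ± 0.40 (0.0163), 1 of 4 cardiomyocyte factors. Twist1 was higher by 1.25 ± 0.26, while Ebf2 (-4.21 ± 0.44) and Meox2 (-2.67 ± 0.55) were lower, 3 of 30 epicardial and mesenchymal factors tested. Ebf2 and Meox2 passed the low-level filter through the cells without Wif1. Of 9 myofibroblast genes, Fn1 (-4.35 ± 0.42) and Fap (-1.81 ± 0.40) were lower and none was higher. Mural genes moved with Wif1 too. The summed level of the 5 found of 6 was 353.6 and 159.6 CPM with Wif1, against 55.6 and 56.7 CPM without, mainly through Rgs5, Abcc9 and Kcnj8, while Notch3 was at 0 with Wif1. Their part in the result was not tested. The Heart2 side of this comparison rests on 10 cells, and without the library block 0 of the 9 factors were called.

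**Figure D3:**
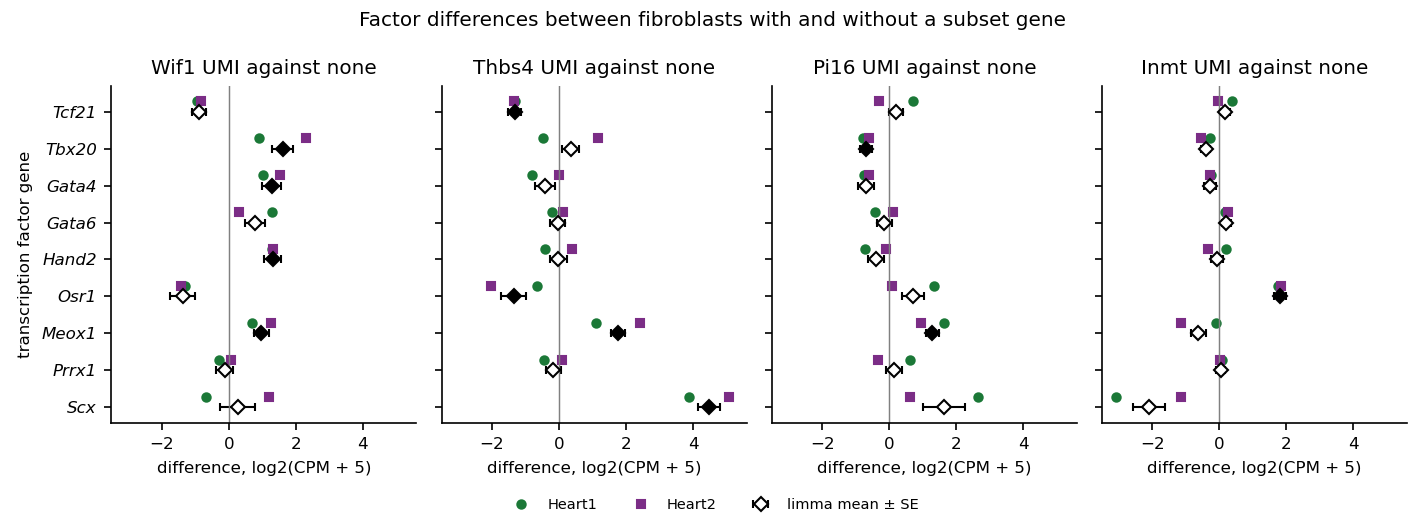
Difference in log2(CPM + 5) of each factor between fibroblasts with and without a UMI of Wif1, Thbs4, Pi16 or Inmt. Small circles (Heart1) and squares (Heart2) are the libraries, diamonds the limma mean with its SE, filled where the adjusted p is under 0.05. The filled diamonds are 4 for Wif1, 4 for Thbs4, 2 for Pi16 and 1 for Inmt.

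Fibroblasts with a Thbs4 UMI (28 and 16 cells) showed a different set. Scx stood at 224.9 and 174.9 CPM with Thbs4, against 10.5 and 0.365 CPM without (176 and 921 cells). Meox1 stood at 923.3 and 936.1 CPM with Thbs4, against 429.2 and 171.9 CPM without. Tcf21 stood at 117.4 and 184.4 CPM with Thbs4, against 297.6 and 469.9 CPM without. For each of these 3 factors the with and without groups did not overlap across libraries. Osr1 stood at 17.9 and 9.46 CPM with Thbs4, against 31.2 and 54.5 CPM without, which was also lower in both libraries but on 9 and 2 UMIs.

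The limma differences with Thbs4 were 4.48 ± 0.32 for Scx (adjusted p 4.65e-10), 1.75 ± 0.21 for Meox1 (4.05e-06), -1.32 ± 0.19 for Tcf21 (4.65e-05) and -1.35 ± 0.38 for Osr1 (0.0345). That is 4 of 9 factors called, 2 in each direction, where 5.27% of 8573 genes were called (2.31% higher and 2.96% lower). Scx passed the low-level filter through the cells with Thbs4 and so had to differ. The Osr1 call ended without the low-level filter (adjusted p 0.134), with the mean of the deposited log values (0.259) and with at least 2 Thbs4 UMIs (0.171). Meox1 and Tcf21 moved in opposite directions within the same cells, and the Tcf21 difference was nearly equal in Heart1 (-1.31) and Heart2 (-1.33). Cells with a Thbs4 UMI were deeper, with median depths of 16060 and 13219 UMIs against 11565 and 8707 UMIs without. On cells thinned to 3000 UMIs, Tcf21 was present in 29.2% and 46.7% of cells with Thbs4, against 49.8% and 67.3% without. The thinned Meox1 shares were 81.3% and 83.0% with Thbs4, against 49.0% and 26.8% without. Without the library block, again 0 factors were called.

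Most tendon genes tested were also higher in fibroblasts with Thbs4. Of 11 tested, 8 were higher with Thbs4 and 0 lower. Tnmd, Chad, Cilp2 and Col11a1 among the 8 passed the low-level filter through the cells with Thbs4 and so had to differ. Tnmd, a tendon membrane protein, stood at 467.6 and 368.8 CPM with Thbs4 and had no UMI without. Fmod, a collagen-binding proteoglycan, was higher by 5.44 ± 0.27 (limma adjusted p 7.63e-13). Fmod too may have passed the filter only through the cells with Thbs4, so its p is not read as support. Comp, a cartilage matrix protein, was higher by 3.77 ± 0.35 (limma adjusted p 5.23e-08). Of 9 myofibroblast genes 7 were higher, among them Postn (3.59 ± 0.22), Cilp (3.52 ± 0.23) and Fn1 (3.60 ± 0.20). Id4 was lower by 2.53 ± 0.58 on the log2 scale with Thbs4 (adjusted p 0.00722). Because Thbs4 is itself a matrix gene of tendon, this subset was set by a gene related to the list.

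Scx RNA sat in a handful of cells. The highest count was 47 UMIs in a Heart1 fibroblast and 19 in a Heart2 fibroblast. Leaving out that cell, the Scx difference with Thbs4 was 3.22 in Heart1 and 4.25 in Heart2, compared with 3.89 and 5.07 with it. Of the fibroblasts with an Scx UMI, 10 of 20 in Heart1 and 4 of 7 in Heart2 also had a Thbs4 UMI, against 18 of 184 and 12 of 930 of those without Scx. Tnmd was found in 5 of 20 and 3 of 7 cells with Scx, against 0 of 184 and 0 of 930 without. Fmod was found in 10 of 20 and 4 of 7, against 12 of 184 and 24 of 930. Not every tendon gene went this way. Col14a1 stood at 27.1 CPM with Scx in Heart1, against 139.1 CPM without, and at 119.7 CPM in Heart2, against 111.2 CPM. Egr1 stood at 944.0 CPM with Scx in Heart1, against 500.3 CPM without, but at 87.0 CPM in Heart2, against 169.4 CPM. Mkx had no UMI in the Heart2 cells with Scx. The level of Tcf21 was 48.8 and 81.6 CPM in cells with Scx, against 298.1 and 471.2 CPM in the other fibroblasts. These counts of cells are a description without a test.

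**Figure D4:**
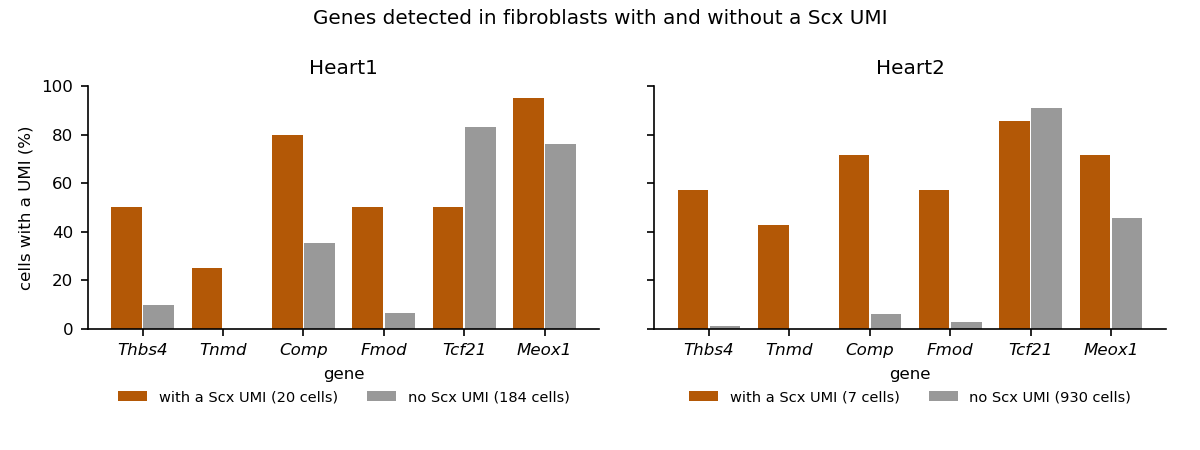
Percent of fibroblasts with a UMI of Thbs4, of the tendon genes Tnmd, Comp and Fmod, and of Tcf21 and Meox1, in cells with an Scx UMI and cells without, by library. Tnmd bars are present for cells with Scx and at 0 for those without, and the Tcf21 bars are lower with Scx.

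Pi16 was present in 184 of 204 and 853 of 937 fibroblasts, so its comparison sets the bulk of the cells against a small remainder (20 and 84 cells). Meox1 stood at 553.3 and 198.6 CPM with Pi16, against 174.3 and 101.0 CPM without, a limma difference of 1.29 ± 0.20 (adjusted p 0.0011). Tbx20 stood at 317.9 and 222.1 CPM with Pi16, against 554.3 and 336.7 CPM without, a difference of -0.69 ± 0.17 (adjusted p 0.0428). That is 2 of 9 factors called, where 1.77% of 8705 genes were called (0.919% higher and 0.85% lower). The Tbx20 call ended under either other pseudocount (adjusted p 0.114 and 0.0511), and both calls ended without the library block. Id4 (-1.35 ± 0.22), Id1 (-1.18 ± 0.26) and Id3 (-0.70 ± 0.15) were lower with Pi16, 3 of 7 bHLH partners and inhibitors. The summed mural genes were 102.9 and 49.8 CPM with Pi16, against 187.7 and 157.6 CPM without. In Heart1 this came through Abcc9 (37.8 CPM with Pi16, against 107.3 CPM without) and Rgs5 (23.6, against 58.1 CPM). Kcnj8 (26.8, against 17.9 CPM), Cspg4 and Notch3 went the other way there, as did Cspg4 in Heart2. The part of the mural genes was not tested. Tcf21 had opposite signs in the libraries (0.71 in Heart1 and -0.31 in Heart2) and was not called.

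With Inmt, Osr1 was the 1 factor called. Osr1 stood at 79.4 and 129.9 CPM in fibroblasts with an Inmt UMI (30 and 204 cells), against 20.1 and 32.3 CPM in those without (174 and 733 cells). The groups did not overlap, and the limma difference was 1.80 ± 0.17 (adjusted p 0.0042), 1.75 in Heart1 and 1.85 in Heart2. It was 1 of 9 factors called, where 0.478% of 8572 genes were called (0.21% higher and 0.268% lower). Osr1 was chosen with earlier results of these data known, and this gate was added after levels were seen. The call is therefore a description and no independent support. An Osr1 UMI was present in 40.0% and 44.6% of cells with Inmt, against 19.0% in each library of cells without. Scx went the other way, with 1 and 0 UMIs in cells with Inmt, against 135 and 40 UMIs without; the difference of -2.11 ± 0.48 was not called (adjusted p 0.146). Meox1 was 94.7 CPM with Inmt in Heart2, against 217.5 CPM without, and was nearly level in Heart1 at 491.7 CPM with Inmt, against 526.8 CPM without (adjusted p 0.389). Of 9 myofibroblast genes 4 were lower with Inmt and 0 higher, led by Postn (-3.71 ± 0.18) and Ltbp2 (-2.91 ± 0.19). The summed level of 6 cardiomyocyte markers differed with Inmt, mainly through Tnnt2. It was 110.1 and 23.7 CPM with Inmt, against 27.0 and 11.9 CPM without, and Ryr2 was at 0 with Inmt. Tnnt2 stood at 94.8 and 12.1 CPM with Inmt, against 18.8 and 4.53 CPM without. Nppa in Heart1 (0 with Inmt, against 2.18 CPM) and Myh6 in Heart2 (1.65, against 2.87 CPM) went the other way. Tnnt2 was also higher with Wif1 (83.8 and 16.8 CPM, against 17.8 and 6.01 CPM without). The part of these markers in the result was not tested. Without the library block the Osr1 call also ended.

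**Figure D5:**
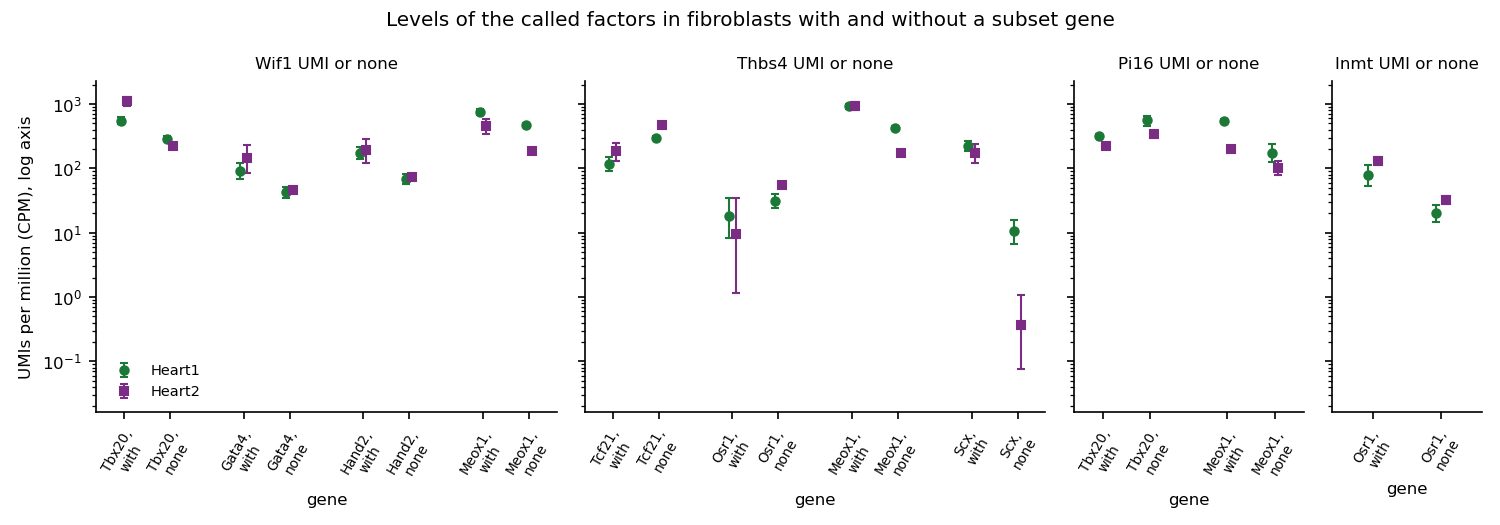
Levels in CPM (log axis) of each called factor in fibroblasts with and without a UMI of Wif1, Thbs4, Pi16 or Inmt, by library, with 95% Poisson intervals. Scx lay at 224.9 and 174.9 CPM with Thbs4, against 10.5 and 0.365 CPM without, and Osr1 at 79.4 and 129.9 CPM with Inmt, against 20.1 and 32.3 CPM without.

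Prrx1 was called in none of the 4 comparisons. Its limma differences were -0.12 ± 0.25 with Wif1, -0.17 ± 0.22 with Thbs4, 0.14 ± 0.23 with Pi16 and 0.04 ± 0.14 with Inmt. Gata6 was not called in any of them either. Differences between the 4 comparisons were not tested, and they share cells: a fibroblast may carry UMIs of several of the 4 genes.

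Across single fibroblasts few genes tracked a factor closely. The correlation of the deposited log values was taken over 204 Heart1 and 937 Heart2 fibroblasts, which share a library and differ in depth, and 8594 genes were ranked by the lower of the 2 values. Scx ranked Tnmd (r 0.664 and 0.837), Thbs4 (0.651 and 0.737), Spp1 (0.590 and 0.573) and Fmod (0.639 and 0.561) first. These values rest on few cells: Scx had a UMI in 20 Heart1 and 7 Heart2 fibroblasts. Tnmd had a UMI in 5 and 3 of those cells and in 0 of the other fibroblasts. Meox1 ranked Cilp (0.433 and 0.440), Bgn (0.394 and 0.433), Ctgf (0.418 and 0.375) and Postn (0.559 and 0.370) first, all matrix or matricellular genes. The top gene for Osr1 was Inmt (0.305 and 0.339). For Tcf21, Tbx20, Gata4, Gata6, Hand2 and Prrx1 no gene reached 0.3 in both libraries. Over the 8 sums of libraries and gates with at least 10 cells, the closest gene was Mpdz for Tcf21 (r 0.999), Tmem45a for Tbx20 (0.997), Pxylp1 for Gata4 (0.996) and Foxc1 for Hand2 (0.997). It was Slit3 for Osr1 (0.992), Creb3l2 for Meox1 (0.992), Serpine2 for Prrx1 (0.998) and Ttc9 for Scx (0.898). In those sums the step between fibroblast and macrophage gates sets most of each r.

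Cdkn2a, for whose product the reporter strain is named, split the Heart1 fibroblasts into 70 with a UMI and 134 without. Meox1 stood at 634.2 CPM with a Cdkn2a UMI, against 457.1 CPM without. Gata4 stood at 68.4 CPM with Cdkn2a, against 41.7 CPM without, and Tbx20 at 375.8 CPM, against 315.7 CPM. Tcf21 stood at 205.3 CPM with Cdkn2a, against 297.5 CPM without, and Prrx1 at 126.6 CPM, against 139.6 CPM. The intervals did not overlap for Meox1 (585.3 to 686.1, against 425.5 to 490.3 CPM), Gata4 (53.0 to 86.9, against 32.5 to 52.5 CPM) and Tcf21 (177.9 to 235.7, against 272.2 to 324.5 CPM). Those intervals cover counting error only and leave out the spread between cells. The 21 Heart1 fibroblasts with the most Meox1 UMIs held 46.9% of them, and the top 21 for Gata4 held 51.4%. Cells with Cdkn2a were slightly deeper, with a median of 12347 UMIs against 11404 UMIs. The Cdkn2a split also divided the Wif1 subset, since 25 of 38 Heart1 fibroblasts with a Wif1 UMI had a Cdkn2a UMI, against 45 of 166 without Wif1. The part of Wif1-bearing cells was not tested. There is no replicate of this comparison, as 7 of 937 Heart2 fibroblasts had a Cdkn2a UMI, so no test was made.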

How the data were processed

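Single-cell RNA was measured in mCherry-positive heart cells. Per the submitters' processing notes, the authors used Cell Ranger 3.0.2 and the build mm10. The deposited values are on a natural log scale: each is ln(1 + x), where x is the gene's UMIs scaled to 10000 in its cell, as the values themselves show. Undoing the log and dividing by the smallest step of a cell gave whole UMI counts for all 4459440 nonzero values (tolerance 1e-06). Sources used here name no normalizing tool, cell filter or strand setting. If strand was ignored, Scx cannot be told apart from the overlapping Bop1, Tcf21 from Gm10824, or Gata6 from 1010001N08Rik. Prrx1 and the overlapping Gm26523 lie on the same strand, so strand would not tell them apart.

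UMIs were summed per library and gate and tested with limma 3.58.1 (R 4.3.3) on log2(CPM + 5), with library as a block and eBayes with a trend. Benjamini-Hochberg adjustment ran over genes with a mean of at least 10 CPM. Calls are at an adjusted p under 0.05, and gate genes were not tested. No count model was run, as the deposited unit is a log value. Each sum needed at least 10 cells. On this scale changes of low genes are understated. Whether the libraries hold different animals is not stated in the labels; p-values then measure a spread that may be technical. Scrublet in scanpy 1.11.5 predicted 1 doublet in Heart1 and 3 in Heart2, which were kept. The fits were tested on simulated data. Intervals are 95% and cover counting error only.

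The factors and lists were chosen with earlier results of these data known. Named genes are every factor, up to 4 genes of a list with the largest called difference between the gates, and the genes most like each factor. Not every such gene is reported here. List genes called in a subset were named after their values were seen. Of the mesothelial markers, 0 of 6 were in the table. T cell markers were at 0 in both gates, and B cell and neutrophil markers summed to at most 31.7 CPM. Alternatives covered the pseudocount, filter, scaling, block, doublets, gates and single libraries.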

Additional observations from a re-analysis of the deposited data

Results flagged for a closer look

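Of the cells outside both main gates, those gated as endothelial by at least 3 of 6 endothelial genes (6 cells in Heart1 and 9 in Heart2) carried some of the factors above the limit that 3 UMIs set (26.5 and 37.0 CPM). Hand2 stood at 353.0 CPM in Heart1, from 40 UMIs in 3 cells, and at 61.7 CPM in Heart2, from 5 UMIs in 3 cells. Meox1 stood at 79.4 CPM in Heart1 and 209.8 CPM in Heart2, with a UMI in 5 of 6 and 7 of 9 cells. Gata6 stood at 35.3 CPM in Heart1 and 49.4 CPM in Heart2, from 4 UMIs in each. Tcf21, Prrx1 and Scx had 0 UMIs in these cells in both libraries. The fibroblast gene Dcn stood at 3961.9 CPM in Heart1 and 962.8 CPM in Heart2 in these cells, with a UMI in 3 of 6 and 3 of 9 cells, so some of them carried fibroblast RNA, and its part in these levels was not tested. The cells are few, no test was made, and they entered no comparison.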

How the results depend on the processing

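Of the differences of single factors recomputed under the alternatives, 545 were counted as unchanged. Another 26 kept the direction but missed the threshold, 5 newly passed it and 6 changed sign. The 545 include single-library values, which have no p, and refits with at least 20 cells, which repeat the reported fit. Single-library sign changes of factors not called, such as Tcf21 with Pi16 and Prrx1 with Wif1, are also among the 545. Dropping the library block removed every subset call: 0 factors were called for Wif1 (56 genes), Thbs4 (7 genes), Pi16 (0 genes, 266 at an unadjusted p under 0.05), Inmt (0 genes, 219) and the Pi16 against four-gene-negative gates (0 genes, 227). The cause was not tested.

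In the Pi16 against four-gene-negative gates, 0 factors were called with median ratio scaling (8 genes), with at least 3 UMIs (33 genes) and in 1 fit over all gates (1 gene), against 1 factor and 99 genes as reported. There 220 genes were called with a pseudocount of 20, and Pi16 alone gave 2 factors and 154 genes. For Wif1, 2 factors were called with a pseudocount of 1, and 5 with no filter or mean log values, the added one being Tcf21, against 4. For Thbs4, 3 factors were called with no filter, mean log values or at least 2 UMIs, against 4, and 290 genes were called with at least 2 UMIs, against 452. For Pi16 alone, 1 factor was called with a pseudocount of 1 (82 genes, against 154) or 20, median ratio scaling or mean log values. For Inmt, 2 factors were called with no filter (102 genes), median ratio scaling (94 genes) and at least 2 UMIs (240 genes), the second being Scx, and gene counts were 19 with mean log values and 194 with at least 3 UMIs, against 41.

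In the refits, changes of sign were confined to factors that were not called. They were Osr1 with the Pi16 against four-gene-negative gates under median ratio scaling (0.0011) and Tbx20 with Thbs4 at 2 UMIs (-0.063). Under mean log values they were Gata6 (0.012) and Hand2 (0.087) with Thbs4. With Inmt they were Hand2 at 3 UMIs (0.28) and Prrx1 at 2 UMIs (-0.030). Settings that left under the minimum of cells were not run: Wif1 at 2 or 3 UMIs, Thbs4 at 3 UMIs, both with at least 20 cells, and the four-gene gates of Wif1, Thbs4 and Inmt throughout and of Pi16 at 1 UMI or 20 cells. Leaving out a library gives values without a test, which are the single-library differences above. Depth limits Osr1 and Scx most, with 2 to 9 UMIs behind several subset levels.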

Other observations

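Cells in no main gate held a few further UMIs of the factors. The 1 mixed cell of Heart1, with at least 3 markers of both fibroblasts and macrophages, had 11 Scx UMIs and 19 Tbx20 UMIs. In Heart1, 18 cells passed no gate, and 1 of them held all 27 Meox1 UMIs found among them. In Heart2, 4 cells passed no gate, and 3 of them had a Tcf21 UMI. Among Heart2 macrophages, 56 had a Cdkn2a UMI and 152 had none. Their factor UMIs came to 1 each of Tcf21 and Meox1 in cells with Cdkn2a, against 1 each of Tbx20 and Osr1 in cells without.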
